A study of Mus with 2 samples.

Results

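Single-nucleus RNA sequencing (snRNA-seq) data of interscapular brown adipose tissue (iBAT) were examined for 10 genes of mitochondrial fatty acid oxidation: *Acsl1*, *Cpt1a*, *Cpt1b*, *Cpt2*, *Slc25a20*, *Acadvl*, *Acadl*, *Acadm*, *Hadha* and *Hadhb*. The genes were chosen by name as enzymes and carriers of the pathway, and all 10 were found among the 32285 genes of the files. A library was made from *Wtap* flox/flox mice, in which both alleles of *Wtap* hold a floxed exon and Cre is absent. Another was made from mice labelled *Wtap*-BKO, with the same floxed alleles together with *Ucp1*-iCre. In these mice Cre is made from the *Ucp1* locus, so recombination is directed to cells that use the *Ucp1* gene, and the other cell types of the depot keep intact alleles unless they use it too. Both groups were C57BL/6 mice at the age of 8 weeks on normal chow, and nuclei of 4 mice, isolated from frozen iBAT, went into each library as a pool. Single mice cannot be traced in the pools, which leaves 1 library and no replicate per genotype. No test between genotypes was possible, and no p-value is given.

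Long-chain fatty acids released from lipid droplets or taken up from blood are first coupled to coenzyme A by acyl-CoA synthetases. The acyl group is then passed to carnitine at the outer mitochondrial membrane, carried across the inner membrane as acylcarnitine, returned to coenzyme A in the matrix and shortened in repeated cycles by acyl-CoA dehydrogenases and the mitochondrial trifunctional protein. Brown adipocytes are rich in this pathway because its electrons feed the respiratory chain that UCP1 uncouples for heat, and fatty acids also activate UCP1 itself.

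From *Wtap* flox/flox mice there were 9494 nuclei with 10770604 unique molecular identifiers (UMIs, each standing for 1 captured RNA molecule), and in the library labelled *Wtap*-BKO there were 8772 nuclei with 13945673 UMIs. Of these, 6728 and 4932 nuclei formed adipocyte-like clusters, with medians of 989 and 1474 UMIs per nucleus. Levels are given as UMIs per 1000000 UMIs of a class (CPM), and ratios as the log2 of the level in the library labelled *Wtap*-BKO divided by that in *Wtap* flox/flox. The 95% intervals stand for counting error and leave out any variation between mice or library preparations. A gene is counted as lower or higher past 1.5-fold if it had at least 20 UMIs in both libraries together and its levels differed by at least that fold. The libraries differed in mitochondrially encoded RNA: its median share in adipocyte-like nuclei was 2.96% in *Wtap* flox/flox and 9.90% in the other library. The *Wtap* gene itself had 50.6 and 48.2 CPM in adipocyte-like nuclei (log2 ratio -0.07, 95% interval -0.27 to 0.14). Tags of the 3′ end need not lie in the floxed exon, so this level does not check the labels. Of the barcodes, 20 occurred in both libraries. Summed macrophage markers in adipocyte-like nuclei stood at 73.1 and 143 CPM, fibroblast markers at 67.6 and 135 CPM, T cell markers at 14.8 and 50.7 CPM and endothelial markers at 120 and 75.5 CPM. All 8 markers of each of these lists were detected in both libraries, and their part in the results was not tested. All 12 adipocyte markers were detected there too, at a sum of 10397 and 13537 CPM (log2 ratio 0.38), with 5 of the 12 lower in the library labelled *Wtap*-BKO. The 11 brown adipocyte genes summed to 10077 and 7425 CPM (-0.44), and 7 white-like genes to 301 and 986 CPM (1.71).

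In adipocyte-like nuclei, 7 of the 10 fatty acid oxidation genes stood lower in the library labelled *Wtap*-BKO, at a log2 ratio between -0.50 and -0.30, beside 45.6% of the 14076 genes tested. *Hadhb* stood higher, with an interval above 0, and the interval of *Cpt2* included 0. *Cpt1a* stood higher with an interval that began at 0.01. Its ratio fell from 0.45 to 0.43 without *Gm42418* in the total and to 0.38 under median-of-ratios scaling, shifts larger than that distance from 0. Some other alternatives raised it, up to 0.76 without nuclei over 5% mitochondrially encoded UMIs. Summed over the 10 genes, the level was 9346 CPM in *Wtap* flox/flox and 7281 CPM in the other library (log2 ratio -0.36, 95% interval -0.38 to -0.34), and the log2 ratio was -0.36 also without the 20 barcodes of both libraries. *Acsl1* made up 51.6% and 48.3% of these UMIs, and the other 9 genes together had a log2 ratio of -0.27 (95% interval -0.29 to -0.24). The median log2 ratio was -0.35 over the 10 genes and 0.07 over all genes tested. No member passed 1.5-fold in either direction, whereas 12.2% of all genes tested were lower and 25.2% were higher past 1.5-fold. These shares include rarely counted genes, whose ratios vary more by counting. At a minimum of 100 UMIs per gene they were 10.6% and 19.4%, with a median over all genes of 0.02. The differences in these genes were therefore smaller than those of many other genes in the same nuclei, and fewer nuclei of a kind and less RNA per nucleus cannot be told apart in such sums.

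**Figure D1:**
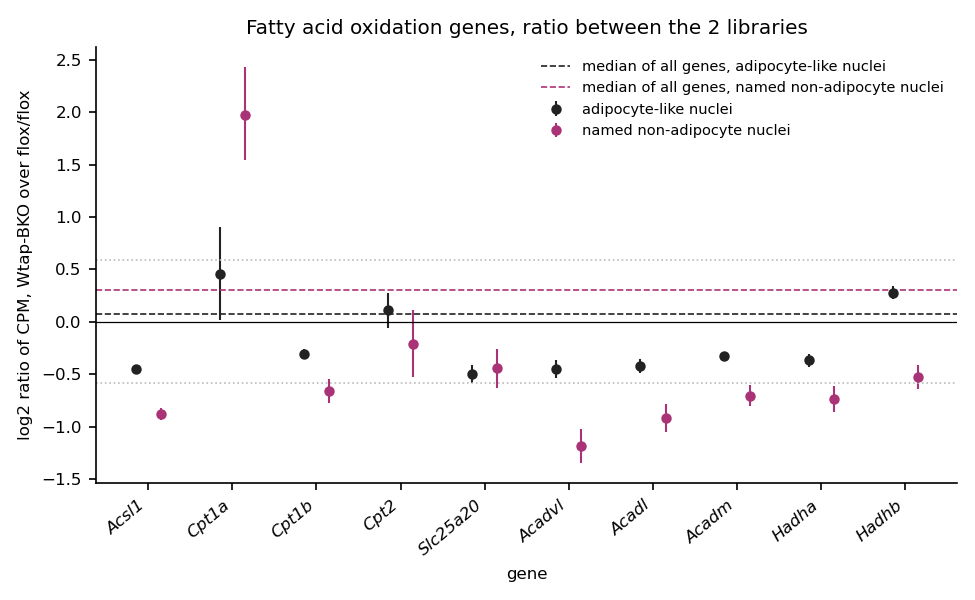
Log2 ratio of CPM (y axis) between the library labelled *Wtap*-BKO and *Wtap* flox/flox for each gene (x axis) in adipocyte-like nuclei (black) and in named non-adipocyte nuclei (purple). Bars are exact 95% counting intervals, dashed lines the median of all genes in each class, and dotted lines 1.5-fold. *Hadhb* lies above 0 in adipocyte-like nuclei and below 0 in the pooled others, *Cpt1a* lies above 0 in both, and the lineages pooled differ in their shares between the libraries.

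The activating enzyme comes first in the pathway. *Acsl1* (ENSMUSG00000018796; chromosome 8, 46471037 to 46536051 in GRCm38.p6) encodes the main long-chain acyl-CoA synthetase of adipocytes, which makes acyl-CoA both for oxidation and for triglyceride synthesis. Its level was 4822 CPM (95% interval 4773 to 4872) in *Wtap* flox/flox and 3518 CPM (95% interval 3478 to 3558) in the library labelled *Wtap*-BKO, with a log2 ratio of -0.45 (95% interval -0.48 to -0.43). Without nuclei over 5% mitochondrially encoded UMIs the ratio was -0.13. After thinning to 1000 UMIs, 97.8% of the 3278 *Wtap* flox/flox and 89.3% of the 3835 other adipocyte-like nuclei kept an *Acsl1* UMI. From these shares 3450 and 1097 shallower nuclei were left out. Over all 6728 and 4932 adipocyte-like nuclei, unthinned, the shares with an *Acsl1* UMI were 96.6% and 90.4%.

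The carnitine shuttle moves the acyl group into the matrix. *Cpt1b* (ENSMUSG00000078937; chromosome 15, 89416405 to 89425862 in GRCm38.p6) and *Cpt1a* (ENSMUSG00000024900; chromosome 19, 3322326 to 3385735 in GRCm38.p6) encode isoforms of carnitine palmitoyltransferase 1, the step that malonyl-CoA inhibits, with CPT1B known as the isoform of muscle and brown fat and CPT1A as that of liver and many other tissues. *Cpt1b* stood at 1067 CPM (95% interval 1044 to 1090) in *Wtap* flox/flox and 864 CPM (95% interval 844 to 884) in the library labelled *Wtap*-BKO, with a log2 ratio of -0.30 (95% interval -0.35 to -0.26). *Cpt1a* was rare, with 73 and 110 UMIs. Its level was 9.64 CPM (95% interval 7.55 to 12.1) and 13.2 CPM (95% interval 10.8 to 15.9), a log2 ratio of 0.45 (95% interval 0.01 to 0.90). The gene *Chkb* lies 486 bases from *Cpt1b*, and reads running between these neighbours were not separated here. *Chkb* itself had a log2 ratio of -0.64 (95% interval -0.71 to -0.56).

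*Slc25a20* (ENSMUSG00000032602; chromosome 9, 108662136 to 108684642 in GRCm38.p6) encodes the carnitine-acylcarnitine translocase of the inner membrane. It went from 342 CPM (95% interval 329 to 356) to 243 CPM (95% interval 232 to 253), the lowest ratio of the 10 genes, at -0.50 (95% interval -0.58 to -0.41). *Cpt2* (ENSMUSG00000028607; chromosome 4, 107903982 to 107923589 in GRCm38.p6) encodes carnitine palmitoyltransferase 2, which hands the acyl group back to coenzyme A. Its level was 72.4 CPM (95% interval 66.4 to 78.7) and 78.1 CPM (95% interval 72.2 to 84.3), a log2 ratio of 0.11 (95% interval -0.06 to 0.28), a difference within counting error. Without cluster 2 of the adipocyte-like clusters the ratio of *Cpt2* was -0.03.

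The acyl-CoA dehydrogenases open each cycle and differ in the chain length they prefer. *Acadvl* (ENSMUSG00000018574; chromosome 11, 70010183 to 70015428 in GRCm38.p6), for very long chains, stood at 329.9 CPM (95% interval 317 to 343) in *Wtap* flox/flox and 241 CPM (95% interval 231 to 252) in the library labelled *Wtap*-BKO, with a log2 ratio of -0.45 (95% interval -0.54 to -0.37). *Acadl* (ENSMUSG00000026003; chromosome 1, 66830839 to 66863309 in GRCm38.p6), for long chains, stood at 536 CPM (95% interval 520.1 to 553) and 401 CPM (95% interval 387 to 415), a log2 ratio of -0.42 (95% interval -0.49 to -0.35). *Acadm* (ENSMUSG00000062908; chromosome 3, 153922353 to 153944643 in GRCm38.p6), for medium chains, stood at 1067 CPM (95% interval 1044 to 1091) and 848 CPM (95% interval 828 to 868), a log2 ratio of -0.33 (95% interval -0.38 to -0.29). All 3 dehydrogenases thus stood lower in the library labelled *Wtap*-BKO. The annotation places *Mir324* within *Acadvl*, and *Dvl2* lies 73 bases from it.

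The trifunctional protein carries out the later steps of the cycle on long chains. Its alpha subunit, with the hydratase and 3-hydroxyacyl-CoA dehydrogenase activities, is encoded by *Hadha* (ENSMUSG00000025745; chromosome 5, 30119423 to 30154980 in GRCm38.p6), and its beta subunit, the thiolase, by *Hadhb* (ENSMUSG00000059447; chromosome 5, 30155253 to 30184593 in GRCm38.p6). The annotation places these genes side by side, 272 bases apart. *Hadha* stood at 590.1 CPM (95% interval 573 to 608) in *Wtap* flox/flox and 458 CPM (95% interval 443 to 473) in the library labelled *Wtap*-BKO, with a log2 ratio of -0.37 (95% interval -0.43 to -0.30). *Hadhb* went the other way, from 509 CPM (95% interval 493 to 525) to 617 CPM (95% interval 601 to 634), a log2 ratio of 0.28 (95% interval 0.22 to 0.34). Of the UMIs of both subunits, *Hadhb* made up 46.3% (95% interval 45.2 to 47.4%) in *Wtap* flox/flox and 57.4% (95% interval 56.4 to 58.4%) in the other library. The share of *Hadhb* was higher in the library labelled *Wtap*-BKO in each of the 5 adipocyte-like clusters, and the intervals of the libraries did not overlap in clusters 0, 1, 2 and 11. A higher share in the library labelled *Wtap*-BKO was also found outside adipocyte-like nuclei, at 54.9% (95% interval 52.1 to 57.7%) and 62.5% (95% interval 58.7 to 66.2%) in endothelial-like nuclei. In macrophage- and T cell-like nuclei together it was 48.2% (95% interval 42.5 to 53.9%) and 56.5% (95% interval 53.7 to 59.2%), with intervals that overlapped, and in pericyte-like nuclei it was lower, at 59.3% (95% interval 54.3 to 64.1%) and 54.4% (95% interval 47.5 to 61.1%), again with intervals that overlapped.

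The 5 adipocyte-like clusters were formed without the 10 genes among the variable features. Cluster 0, led by *Lncbate10* and *Gmpr*, and cluster 1, led by *Xrcc6* and *Kng2*, held 2682 and 2324 of the 6728 *Wtap* flox/flox adipocyte-like nuclei, whereas cluster 2, led by mitochondrially encoded genes, was the largest in the library labelled *Wtap*-BKO, with 1511 of 4932 nuclei. Cluster 9 was led by *Slc7a10* and *Cyp2e1* and had the highest summed white-like genes (2220 and 3467 CPM), and cluster 11 was led by interferon-induced genes such as *Gbp6* and *Iigp1*. Cluster 9 differed from cluster 0 within each library in most of the 10 genes. In *Wtap* flox/flox, *Cpt1b* was at 403 CPM in cluster 9 and 1108 CPM in cluster 0, and in the library labelled *Wtap*-BKO it was at 249.6 and 1002 CPM. The log2 ratios of cluster 9 over cluster 0 were -1.46 (95% interval -1.73 to -1.20) and -2.01 (-2.19 to -1.82). Cluster 9 was lower past 1.5-fold for 6 of the 10 genes in *Wtap* flox/flox (*Cpt1b*, *Slc25a20*, *Acadvl*, *Acadm*, *Hadha* and *Hadhb*), beside 20.8% of all genes, and for these and *Acadl* in the other library, beside 19.5%. *Cpt2* (-0.12 and 0.22) and *Cpt1a* (-0.52 and 0.29) did not pass it in either library. *Acsl1* did not pass it either and was at 5387 CPM in cluster 9 and 5006 CPM in cluster 0 of *Wtap* flox/flox, and at 5081 and 4028 CPM in the other library. For cluster 11 over cluster 0, the median over the 10 genes was -0.21 in *Wtap* flox/flox and -0.54 in the other library. The median over all genes was 0.03 and -0.10 there. For cluster 9 the medians were -0.69 and -1.12 over the 10 genes, beside -0.02 and -0.09 over all genes.

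**Figure D2:**
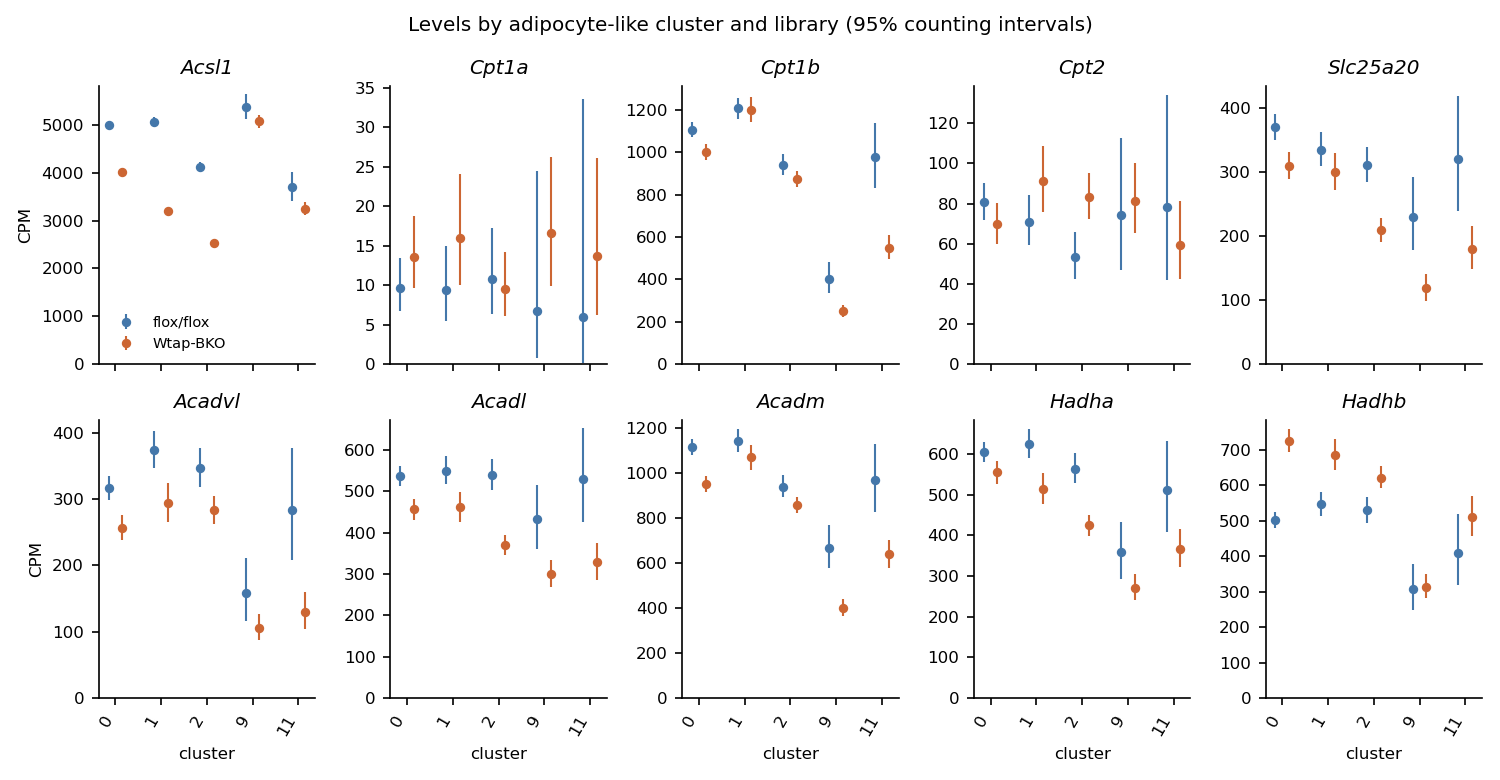
Level of each gene in CPM (y axis, from 0) in the 5 adipocyte-like clusters (x axis) of the *Wtap* flox/flox library (blue) and the library labelled *Wtap*-BKO (orange), with exact 95% Poisson intervals. Cluster 9 is lowest for *Cpt1b*, *Slc25a20*, *Acadvl*, *Acadl*, *Acadm*, *Hadha* and *Hadhb* but highest for *Acsl1*, and *Hadhb* is higher in the library labelled *Wtap*-BKO in each cluster.

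Within clusters, the difference between the libraries depended on the gene. *Acsl1* had log2 ratios of -0.66 and -0.70 in clusters 1 and 2 and of -0.08 and -0.19 in clusters 9 and 11. *Cpt1b* showed the reverse order, with -0.01 and -0.11 in clusters 1 and 2 and -0.69 and -0.83 in clusters 9 and 11. *Hadhb* lay above 0 in each cluster, from 0.03 in cluster 9, where the interval included 0 (-0.31 to 0.38), to 0.53 in cluster 0, and *Hadha* lay below 0 in each cluster, from -0.48 to -0.12. These signs did not all hold in nuclei with at most 5% mitochondrially encoded UMIs, where *Hadhb* was at -0.11 in cluster 9, *Hadha* at 0.03 in cluster 1, and *Acsl1* at 0.14 in cluster 9 and 0.08 in cluster 11. Cluster 2 had 1 such nucleus in the library labelled *Wtap*-BKO, and its *Hadha* ratio there, 2.31, rests on that nucleus. Past 1.5-fold, none of the 10 genes was lower or higher in cluster 0, beside 11.8% of all genes lower and 22.9% higher. *Acsl1* was lower and *Cpt1a* higher in cluster 1 (12.4% and 23.1% of all genes), the latter on 17 and 22 UMIs with an interval that included 0. *Acsl1* was lower and *Cpt2* higher in cluster 2 (15.2% and 21.2%). In cluster 9, *Cpt1b*, *Slc25a20*, *Acadvl* and *Acadm* were lower and *Cpt1a* higher (15.7% and 21.5%), the last on 2 and 18 UMIs. In cluster 11, *Cpt1b*, *Slc25a20*, *Acadvl*, *Acadl* and *Acadm* were lower and none was higher (21.7% and 26.0%), with 9 of the 10 genes tested because *Cpt1a* had fewer than 20 UMIs.

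The ratios also moved with the mitochondrial share of the nucleus. *Cpt1b* had a log2 ratio of -0.88 among adipocyte-like nuclei with up to 2.5% mitochondrially encoded UMIs, -0.42 between 2.5 and 5%, -0.17 between 5 and 10%, and 0.09 between 10 and 25%. *Acsl1* went the opposite way over the same ranges, at 0.09, -0.20, -0.23 and -0.29. *Hadhb* stayed between 0.17 and 0.32 up to a share of 25% and was at -0.42 above it, where the *Wtap* flox/flox library had 58 nuclei. Cluster 9 made up 27.0% of the 222 nuclei with up to 2.5% in the library labelled *Wtap*-BKO and 4.59% of the 2463 such *Wtap* flox/flox nuclei, so the clusters compared also differ along this axis. Among nuclei with at most 5%, the summed log2 ratio was -0.22, *Cpt1b* was at -0.51, *Hadha* at -0.22, *Acadvl* was lower past 1.5-fold (-0.66) and *Cpt1a* higher (0.76). The part of the mitochondrial share in these differences was not tested.

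**Figure D3:**
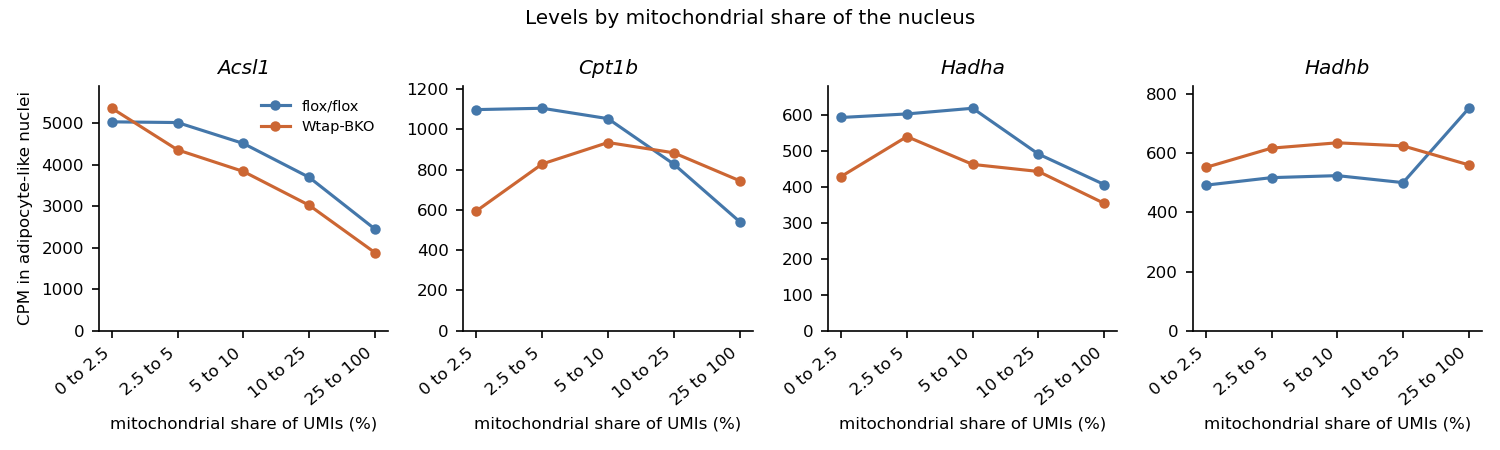
Level in CPM (y axis, from 0) of *Acsl1*, *Cpt1b*, *Hadha* and *Hadhb* in adipocyte-like nuclei grouped by their mitochondrially encoded share of UMIs in percent (x axis), for *Wtap* flox/flox (blue) and the library labelled *Wtap*-BKO (orange). *Acsl1* falls as the share rises in both libraries, and the lines of *Cpt1b* cross between 5 to 10% and 10 to 25%.

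Across lineages, the summed level of the 10 genes was higher in adipocyte-like than in named non-adipocyte nuclei of the same library. It was 9346 against 4339 CPM in *Wtap* flox/flox (log2 ratio 1.11, 95% interval 1.08 to 1.14) and 7281 against 2590 CPM in the library labelled *Wtap*-BKO (1.49, 1.46 to 1.52). Past 1.5-fold, 6 of the 10 genes were higher in adipocyte-like nuclei of *Wtap* flox/flox, beside 23.6% of all genes, and 9 of 10 in the other library, beside 19.4%. In *Wtap* flox/flox the ratio was highest for *Cpt1b* (1.42) and *Acsl1* (1.41) and close to 0.3 for *Hadhb* (0.29). *Cpt1a* was the exception, lower in adipocyte-like nuclei at a log2 ratio of -0.88 (95% interval -1.42 to -0.34) in *Wtap* flox/flox and -2.41 (-2.73 to -2.10) in the other library. In *Wtap* flox/flox this did not hold for each lineage, since *Cpt1a* stood at 9.64 CPM in adipocyte-like, 8.35 CPM in endothelial-like and 7.27 CPM in pericyte-like nuclei. The pool of non-adipocyte nuclei also differed between the libraries, with 1171 and 848 endothelial-like, 291 and 1119 macrophage-like and 118 and 742 T cell-like nuclei.

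Adipocyte markers were also counted in nuclei of other lineages, which limits these contrasts. The 12 adipocyte markers in named non-adipocyte nuclei stood at a median of 49.4% of their adipocyte-like level in *Wtap* flox/flox and 34.8% in the library labelled *Wtap*-BKO, and the 10 oxidation genes stood at 59.8% and 45.5%. The same 12 markers had named the adipocyte-like clusters by their excess over these nuclei, which in part fixed their medians. The 10 genes took no part in that naming, so these medians are not like for like. In nuclei thinned to 1000 UMIs, *Cpt1b*, which is not known as a T cell or macrophage isoform, was detected in 63.4% of adipocyte-like and 41.3% of macrophage- and T cell-like nuclei of *Wtap* flox/flox (median depths 989 and 910 UMIs before thinning, 65.7% and 37.7% unthinned). In the library labelled *Wtap*-BKO the shares were 52.8% of 3835 and 18.9% of 1115 thinned nuclei. Over all nuclei of these classes there, the unthinned shares were 64.3% and 22.1%, at median depths of 1474 and 1155 UMIs. Detection of *Cpt1b* in the immune nuclei thus does not show its expression there. The mean number of the 10 genes detected per thinned nucleus was 4.11 in adipocyte-like and 3.15 in macrophage- and T cell-like nuclei of *Wtap* flox/flox, and 3.61 and 1.70 in the other library.

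**Figure D4:**
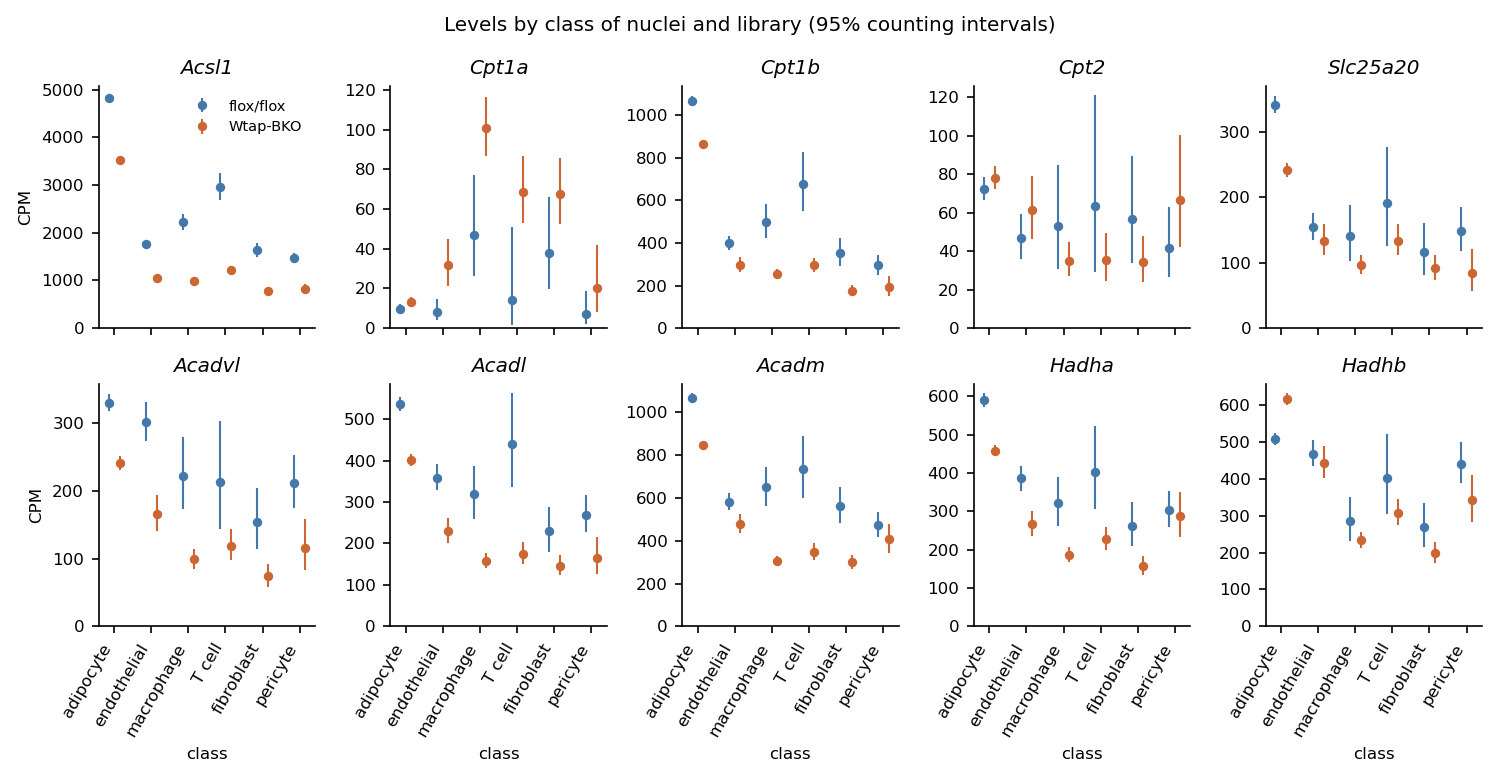
Level of each gene in CPM (y axis, from 0) in the 6 largest named classes of nuclei (x axis) of the *Wtap* flox/flox library (blue) and the library labelled *Wtap*-BKO (orange), with exact 95% Poisson intervals. Every gene but *Cpt1a* is highest in adipocyte-like nuclei of each library, and *Cpt1a* is highest in macrophage-like nuclei.

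Between the libraries, the summed level of the 10 genes was lower in each of the other large classes too, with ratios further from 0 than in adipocyte-like nuclei. The log2 ratio was -0.96 in macrophage-, -1.06 in T cell-, -0.86 in fibroblast-, -0.55 in pericyte- and -0.51 in endothelial-like nuclei. *Acsl1*, *Cpt1b*, *Cpt2*, *Acadvl*, *Acadl*, *Acadm* and *Hadha* were lower past 1.5-fold in macrophage- (16.8% of all genes), T cell- (19.3%) and fibroblast-like nuclei (14.2%), where *Cpt1a* alone was higher (25.4%, 30.9% and 23.0% of all genes). In pericyte-like nuclei *Acsl1*, *Cpt1b*, *Slc25a20*, *Acadvl* and *Acadl* were lower (11.4% of all genes) and *Cpt2* higher (21.8%), with 9 genes tested. The interval of *Cpt2* included 0 in each of these 4 classes, and in pericyte-like nuclei it rests on 23 and 23 UMIs. *Hadhb* had log2 ratios of -0.08 in endothelial-, -0.30 in macrophage- and -0.39 in T cell-like nuclei, each with an interval that included 0, and of -0.37 in pericyte- and -0.45 in fibroblast-like nuclei. *Acsl1*, *Acadvl* and *Acadl* were lower in endothelial-like nuclei (6.02% of all genes) and *Cpt1a* was higher (33.0%). The median over the 10 genes in all named non-adipocyte nuclei was -0.68, the median over all genes there 0.31, the median over the 12 adipocyte markers -0.16 (0.30 in adipocyte-like nuclei), and the summed brown adipocyte genes had -0.82. Whether less adipocyte RNA in these droplets or less RNA made in these nuclei gave the lower levels was not tested.

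The endothelial-like class was made of different clusters in the libraries. Cluster 5, richer in mitochondrially encoded RNA, held 739 of 1171 nuclei in *Wtap* flox/flox, and cluster 4 held 611 of 848 nuclei in the library labelled *Wtap*-BKO. Summed endothelial markers stood at 1935 and 1568 CPM in cluster 5 and at 5158 and 6710 CPM in cluster 4. Summed adipocyte markers stood at 6278 and 7985 CPM in cluster 5 and at 4901 and 4654 CPM in cluster 4. The part of adipocyte RNA in the values of the 10 genes there was not tested. The summed log2 ratio of the 10 genes was -0.67 (95% interval -0.78 to -0.55) within cluster 4 and -0.10 (-0.18 to -0.03) within cluster 5. In cluster 5, 4 of the 9 genes tested stood lower and 5 higher, with a median of 0.06. B cell-like nuclei (12 and 60) and Schwann-like nuclei (22 and 15) had summed log2 ratios of -0.73 and -0.44. The unnamed cluster, with a median mitochondrial share of 39.3%, had 3968 and 3234 CPM.

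*Cpt1a* was highest outside adipocyte-like nuclei. In macrophage-like nuclei it stood at 46.8 CPM (95% interval 26.2 to 77.2) in *Wtap* flox/flox and 101 CPM (95% interval 86.7 to 116) in the library labelled *Wtap*-BKO (log2 ratio 1.11). In T cell-like nuclei it had 2 and 66 UMIs (14.2 and 68.4 CPM; log2 ratio 2.27, 95% interval 0.36 to 5.35). In fibroblast-like nuclei it stood at 37.8 and 67.7 CPM (log2 ratio 0.84, 95% interval -0.05 to 1.86), and in endothelial-like nuclei at 8.35 and 31.6 CPM (log2 ratio 1.92, 95% interval 0.91 to 3.02). The endothelial difference was found within cluster 4 (3 and 27 UMIs) and not within cluster 5 (9 and 3 UMIs). Of the UMIs of both *Cpt1* isoforms, *Cpt1a* made up 0.895% (95% interval 0.702 to 1.12%) in *Wtap* flox/flox and 1.504% (95% interval 1.24 to 1.81%) in the other library in adipocyte-like nuclei. In macrophage-like nuclei the share was 8.57% (95% interval 4.88 to 13.7%) and 28.3% (95% interval 24.9 to 31.9%), and in fibroblast-like nuclei 9.68% (95% interval 5.10 to 16.3%) and 27.7% (95% interval 22.2 to 33.7%). The intervals of the adipocyte-like and macrophage-like shares did not overlap in either library, and the part of free RNA in them was not tested. In nuclei thinned to 1000 UMIs, *Cpt1a* was detected in 0.946% and 1.17% of adipocyte-like and 3.80% and 8.70% of macrophage- and T cell-like nuclei. Over all nuclei of these classes, shallower ones included, the unthinned shares were 1.07% and 2.15%, and 3.91% and 11.2%.

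Around these genes, 54 of 56 other genes of fatty acid metabolism and its control had at least 20 UMIs in adipocyte-like nuclei. Of these, 35 stood lower and 19 higher in the library labelled *Wtap*-BKO, with a median log2 ratio of -0.20, beside 45.6% of all genes lower. Past 1.5-fold, 12 of the 54 were lower and 7 higher, beside the 12.2% of all genes lower and 25.2% higher in the same nuclei, and the counts of single lists that follow stand beside the same shares. The other genes of activation and carnitine supply all stood lower (6 of 6, median -0.37), *Acsl5* and *Cpt1c* within counting error, and *Slc22a5*, the carnitine importer of the plasma membrane, passed 1.5-fold (496 and 315 CPM, log2 ratio -0.65). Of 16 other matrix genes, 11 stood lower (median -0.20), and *Etfa*, a subunit of the flavoprotein that takes electrons from the dehydrogenases, passed 1.5-fold (381 and 251 CPM, -0.60).

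Both genes of acetyl-CoA carboxylase, which makes malonyl-CoA, stood higher. *Acaca*, the cytosolic acetyl-CoA carboxylase of fatty acid synthesis, stood at 664 and 1822 CPM (log2 ratio 1.46, 95% interval 1.410 to 1.502), and *Acacb*, the isoform whose malonyl-CoA is known to inhibit CPT1, at 2552 and 4440 CPM (0.80, 0.77 to 0.82). *Mlycd*, which degrades malonyl-CoA, was named after its values were seen and had 57.6 and 53.2 CPM (-0.11, -0.31 to 0.08).

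Of the peroxisomal genes, which shorten very long and branched chains, 7 of 12 stood higher and 5 lower, with 3 past 1.5-fold in each direction. The transporter *Abcd2* (31.4 and 63.9 CPM, log2 ratio 1.02) and the bifunctional enzyme *Ehhadh* (185 and 294 CPM, 0.66) were among those higher. The transporter *Abcd3* (503 and 275 CPM, -0.87), the racemase *Amacr* (16.2 and 10.6 CPM, -0.62) and the carnitine octanoyltransferase *Crot* (40.8 and 27.0 CPM, -0.60) were lower. The peroxisomal list therefore held no common direction.

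Among 9 transcriptional regulators of the pathway, 7 stood lower, 5 of them past 1.5-fold (12.2% of all genes), with a median log2 ratio of -0.71. These 5 were the coactivator *Ppargc1a* (985 and 403 CPM, -1.29), *Pparg*, the adipocyte master regulator (2872 and 1348 CPM, -1.09), *Lpin1* (589 and 314 CPM, -0.91), *Ppard* (78.7 and 45.8 CPM, -0.78) and *Esrrg* (2644 and 1613 CPM, -0.71). The corepressor *Nrip1* was higher (198 and 387 CPM, 0.97). *Ppara*, the receptor best known for control of oxidation genes, was also named after its values were seen and stood at 4107 and 3784 CPM (-0.12, 95% interval -0.14 to -0.10). Of 5 acyl-CoA thioesterases, *Acot13* (33.5 and 16.7 CPM, -1.01) and *Acot11* (112 and 70.4 CPM, -0.67) were lower and *Acot2* (6.87 and 10.4 CPM, 0.60) was higher past 1.5-fold. None of the 3 ketone body genes tested passed it.

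**Figure D5:**
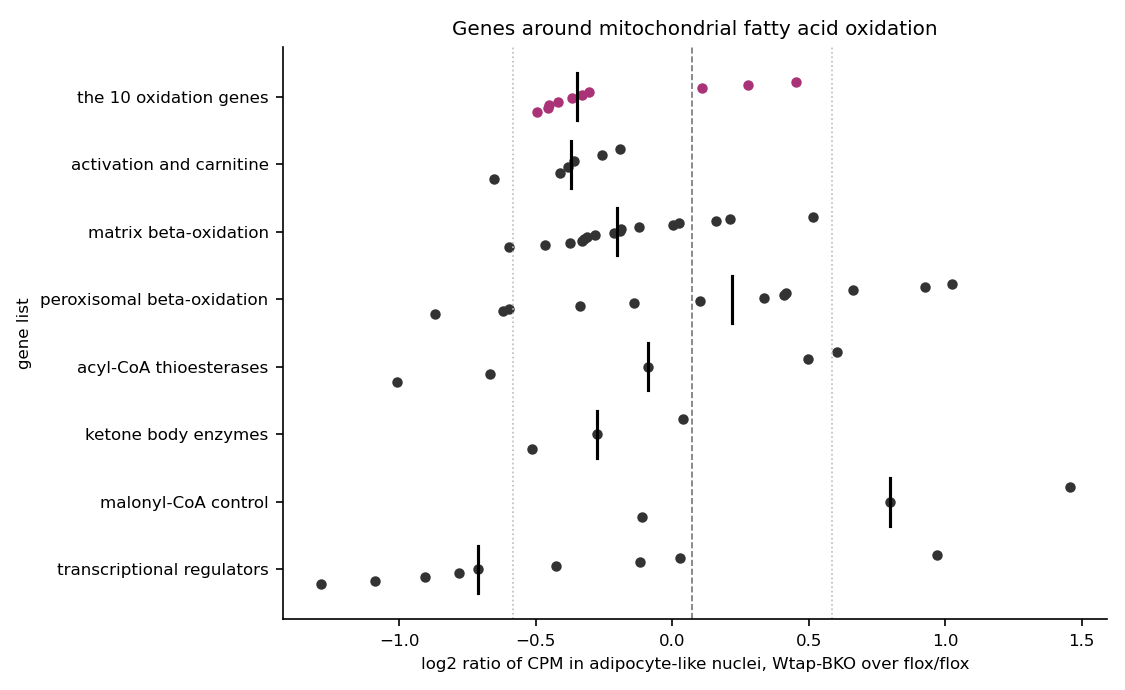
Log2 ratio of CPM between the library labelled *Wtap*-BKO and *Wtap* flox/flox in adipocyte-like nuclei (x axis) for each gene with at least 20 UMIs, by list (y axis); each point is a gene, black bars are list medians, the dashed line is the median of all genes and dotted lines mark 1.5-fold. The 10 oxidation genes (purple) lie within the dotted lines, while 5 transcriptional regulators lie to the left and both acetyl-CoA carboxylases to the right.

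Over 14 profiles, made of each class with at least 100 nuclei in each library, the genes whose levels followed the summed oxidation genes most closely included *Slc36a2* (Pearson r = 0.983), an amino acid transporter, *Pank1* (0.977), a pantothenate kinase of coenzyme A synthesis, *Clstn3* (0.971) and *Dlat* (0.968), a subunit of pyruvate dehydrogenase. They were among the 5 highest of 7182 genes with at least 500 UMIs. The unnamed cluster, rich in mitochondrially encoded RNA, gave a profile in each library. The profiles of a library share its preparation and its free RNA, so r is a description.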

How the data were processed

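The deposited matrices hold raw UMI counts for each gene and nucleus barcode, which the authors made from 10× libraries with Cell Ranger 5.0.0, as the file header gives. The submitters' processing notes also name Trimmomatic, FastQC, Seurat and mm10, and nuclei under 500 UMIs had been removed. Whether intronic reads were counted is not given in the sources used here. The 10 genes, the pathway lists and the markers were chosen with earlier results of these data known.

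The 2 libraries (954 and 1306 UMIs per nucleus at the median) were integrated in Seurat 5.3.0 (R 4.3.3) with 2000 variable features, from which 66 pathway genes were kept out, 20 principal components and a resolution of 0.5, which gave 14 clusters. Clusters were first given another lineage's name from at least 3 markers, and at least 50% of its list, 2-fold above other nuclei. A remaining cluster was called adipocyte-like where at least 50% of 12 markers stood at least 1.5-fold above the pooled nuclei of these named clusters. That comparison was made within the library that held most nuclei of the cluster. These thresholds, and the setting aside of 2 nuclei with at least 50 skeletal muscle marker UMIs from the library labelled *Wtap*-BKO, were set after seeing the data. Scrublet in scanpy 1.11.5 called 3 and 0 nuclei and so had not worked. No doublet was removed, and leaving out the 721 and 616 highest scores was an alternative.

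UMIs were summed per class and library and given per 1000000 UMIs (CPM). SciPy 1.17.1 under Python 3.11.15 gave exact Poisson intervals of levels, exact conditional intervals of ratios and exact binomial (Clopper-Pearson) intervals of shares, all at 95% and for counting error only. With 1 library per genotype no test was made. The calculation was tested on simulated data. Detection was compared after thinning nuclei to 1000 UMIs, with shallower nuclei left out, whereas unthinned shares are over all nuclei of a class. Pathway genes past 1.5-fold were named, up to 6 a list, and some genes that met the naming rules are not reported here. The genes most like the summed 10 were the 5 with the highest Pearson r of log2(CPM + 10), among genes with at least 500 UMIs and leaving out markers and mitochondrially encoded genes. Alternatives were 10 planned and 2 chosen after seeing the data (barcodes of both libraries left out, and adipocyte-like cluster 2 left out). Coordinates are those of RefSeq genes on GRCm38.p6, the build of mm10. Tags of genes that overlap or adjoin, such as *Hadha* and *Hadhb*, could not be separated further.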

Additional observations from a re-analysis of the deposited data

Results flagged for a closer look

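*Hadhb*, the beta subunit of the trifunctional protein, stood higher in the library labelled *Wtap*-BKO in adipocyte-like nuclei (log2 ratio 0.28) and lower in named non-adipocyte nuclei (log2 ratio -0.53). The second value pools lineages whose shares differ between the libraries, and it lay further from 0 than the ratio in endothelial- (-0.08), macrophage- (-0.30), T cell- (-0.39), pericyte- (-0.37) and fibroblast-like nuclei (-0.45), with intervals that included 0 in the first 3. The directions were opposite, and the difference between the classes was not tested because each genotype had 1 library.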

How the results depend on the processing

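Without replicates, all values rest on 1 library per genotype, and the spread between mice is unknown. No paired analysis was possible because each genotype had 1 library, and for the same reason no replicate could be left out. Of the sums, medians and single-gene ratios recomputed over all adipocyte-like nuclei, and the ratios over non-adipocyte nuclei, *Cpt2* alone changed direction, within its counting error, at -0.03 without cluster 2. Within clusters, some signs changed in nuclei of at most 5% mitochondrial UMIs. The summed log2 ratio of the 10 genes in adipocyte-like nuclei (-0.36) was -0.25 without mitochondrially encoded UMIs in the total, -0.38 without *Gm42418*, -0.43 under median-of-ratios scaling, -0.34 at a minimum of 1000 UMIs per nucleus, -0.22 without nuclei over 5% mitochondrial UMIs, -0.30 with adipocyte-like clusters weighted equally and -0.32 without cluster 2. The median log2 ratio (-0.35) was -0.23, -0.42 and -0.29 without mitochondrially encoded UMIs, under median-of-ratios scaling and without nuclei over 5%. The first of these moved the median of all genes from 0.07 to 0.19. Past 1.5-fold, 1 gene was lower (*Acadvl*, -0.66) and 1 higher (*Cpt1a*, 0.76) without nuclei over 5%, and 1 was higher (*Cpt1a*) with clusters weighted equally (0.71) and without cluster 2 (0.66). The log2 ratio of adipocyte-like over non-adipocyte nuclei in *Wtap* flox/flox (1.11) and the library labelled *Wtap*-BKO (1.49) was 0.99 and 1.54 without mitochondrially encoded UMIs, 1.03 and 1.46 without *Gm42418*, 0.96 and 1.40 at 1000 UMIs, 0.99 and 2.13 without nuclei over 5%, 1.26 and 1.86 without the highest doublet scores, and 1.15 and 1.575 without cluster 2. The causes of these shifts were not tested.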
